A study of Homo sapiens with 3 samples.

Results

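The RNA levels of 10 genes that write, guide or remove DNA methylation were read in MCF10A, an immortalized epithelial cell line from human breast that does not form tumours. The genes were DNMT1, DNMT3A, DNMT3B, DNMT3L, UHRF1, UHRF2, TET1, TET2, TET3 and TDG. They were chosen by symbol, with earlier results of these data known. All 10 were found by Ensembl identifier among the 62754 genes of the deposited table. The series holds 3 samples, all of 1 condition and 1 batch, called EV in the labels. These cells had been transduced with an empty retroviral vector of a doxycycline-inducible system and selected with puromycin. The vector carried no gene for the inducible system to express. Besides the selection, neither doxycycline nor any other treatment was given. The paper's text does not mention the vector. RNA was taken during exponential growth and depleted of ribosomal RNA before sequencing. The labels do not say whether the replicates were separate cultures, so that the spread between them may be technical.

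Methylation of cytosine in CpG dinucleotides is copied at each round of DNA replication by DNMT1, which UHRF1 brings to newly made DNA by binding sites that are methylated on the old strand only. DNMT3A and DNMT3B place new methyl groups, and DNMT3L is a cofactor without catalytic activity that is known from germ cells and early embryos. The TET enzymes oxidize methylcytosine, and TDG, a DNA glycosylase, cuts out the most oxidized forms, which base excision repair then replaces with plain cytosine.

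Values are in TPM, a unit that corrects reads for transcript length and sets the sum over all genes of a replicate to 1000000. Whole reads were recovered from these values with the gene lengths of the annotation, which gave 15273329, 15446347 and 11166546 reads for replicates 1, 2 and 3. In replicate 3, RN7SL1 alone held 15.1% of all TPM, against 4.93% in replicate 1 and 5.66% in replicate 2. Genes mostly read low in replicate 3: its median log2 ratio to replicate 1 was -0.25, and to replicate 2 it was -0.24, over 8804 genes whose mean reached 10 TPM. All 6 basal epithelial markers were above 1 TPM, with KRT5 highest at a mean of 6612 TPM. Of the leukocyte markers CD3E had 0 reads and PTPRC had 3, 3 and 2 reads, CD14 had a mean of 1.96 TPM, and 1 of the 4 markers reached 1 TPM. Of the 6 pluripotency and germ cell markers, NANOG, LIN28A, ZFP42 and DPPA3 had 0 reads, while POU5F1 lay on both sides of 1 TPM at 1.09, 2.52 and 0.883 TPM from 13, 31 and 9 reads. Of the 4 luminal markers, GATA3 had a mean of 12.8 TPM and FOXA1 lay on both sides of 1 TPM, with ESR1 and PGR near 0. Of the 4 fibroblast and endothelial markers, COL1A1 had a mean of 4.96 TPM, PECAM1 1.77 TPM and CDH5 0 reads.

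The promoters of the 2 highest members shared a sequence motif, that of the E2F factors, and the matches are shown because DNA is methylated anew behind the replication fork. E2F factors drive genes of S phase through sites of the form TTTCCCGC, TTTCGCGC, TTTGCCGC or TTTGGCGC. These 4 words were searched on both strands in the RefSeq promoter windows of GRCh38.p14, each from 250 bases before a start site to 50 bases after it. Windows were found for 9 of the 10 members. In the lines below, written 5′ to 3′ on the strand of the gene, capitals mark the match.
DNMT1, chr19:10194937-10194966, minus strand, match at the start site: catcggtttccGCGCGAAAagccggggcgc
UHRF1, chr19:4909476-4909505, plus strand, match directly before the first start site: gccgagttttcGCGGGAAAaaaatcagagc
UHRF1, chr19:4909904-4910011, plus strand, match before a second start site 643 bases downstream: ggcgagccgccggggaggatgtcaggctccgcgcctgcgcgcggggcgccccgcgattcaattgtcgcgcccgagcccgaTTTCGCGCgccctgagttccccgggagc
DNMT1 held its match in 1 of 1 window and UHRF1 in 2 of 3. The start site of DNMT1 and the one called first for UHRF1 are those of the canonical transcripts, at 10194953 and 4909501. Both lie inside the annotated genes, and the 30 bases printed at each lie within annotated exons. None of the windows of UHRF2, DNMT3A, DNMT3B, TET1, TET2, TET3 and TDG held one of these words, which says nothing about other sites or about E2F itself. For DNMT3B, only a window at an internal start was searched. Of all 27305 genes of the promoter table, 1090 (3.99%) held a match in at least 1 window, and of all windows 3.31%. Each of the 4 words contains CpG. The matched windows held 30 CpG for DNMT1 and 36 and 40 CpG for UHRF1, where the median over all windows was 14. The share among windows of like CpG content was not computed. Among the 8 S phase genes with a window, 7 held one (MCM2, MCM3, MCM6, MCM7, TYMS, GINS2 and CDC6), and among the 8 partners of maintenance methylation, 5 did (PCNA, HELLS, CDCA7, PCLAF and LIG1). Lists with no role in S phase also exceeded the share over all genes, with 2 of 6 imprinted genes, 2 of 11 germline genes and 1 of 4 genes of methyl donor supply. These are matches of letters and not mapped sites.

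The members also differed in how many CpG sites, the substrate of the enzymes themselves, their own promoters carry. A window at the start of the canonical transcript was found for 8 members, and these windows held between 10 CpG (TET1) and 46 CpG (DNMT3A) in 300 bases, where the median over all windows of the table was 14. TET3 had 45. The 150 bases before the canonical start of TET1 and TET3, the lowest and the highest of the TET genes, are given with every CpG in capitals.
TET1, chr10:68560187-68560336, plus strand: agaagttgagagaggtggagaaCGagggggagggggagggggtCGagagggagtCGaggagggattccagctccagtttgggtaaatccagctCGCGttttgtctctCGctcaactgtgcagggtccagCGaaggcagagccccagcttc
TET3, chr2:73984760-73984909, plus strand: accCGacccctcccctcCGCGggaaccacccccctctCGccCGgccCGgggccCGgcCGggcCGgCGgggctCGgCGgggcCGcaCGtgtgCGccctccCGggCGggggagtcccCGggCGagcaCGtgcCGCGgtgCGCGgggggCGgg
The stretch of TET1 holds 7 CpG and that of TET3 holds 25. For DNMT3B, the single window lies at an internal start, 17467 bases downstream of its canonical start, so the promoter at the start of the gene was not analysed here. Methylation itself was not measured in these samples, so the sequences give only where it could be placed.

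At a cutoff of 1 TPM, the expression cutoff in the study's methods, 8 of the 10 members were expressed by the mean of the replicates. Of all genes, 24.9% reached that cutoff, and of the 20046 protein-coding genes, 56.7% did. TET1 and DNMT3L were below it. No member was called differently between replicates, where 6.5% of all genes and 2.84% of protein-coding genes were. The median level was 17.0 TPM over the 10 members and 3.75 TPM over all protein-coding genes. The members spanned from 0 reads to 126 TPM, and fell into 4 levels: DNMT1, UHRF1, UHRF2 and TDG above 50 TPM, TET2 and TET3 between 14 and 20 TPM, DNMT3A and DNMT3B between 3 and 7 TPM, and TET1 and DNMT3L below 1 TPM. RNA of all cells of a culture was pooled, so a low level in every cell and a higher level in a few cells cannot be told apart.

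**Figure D1:**
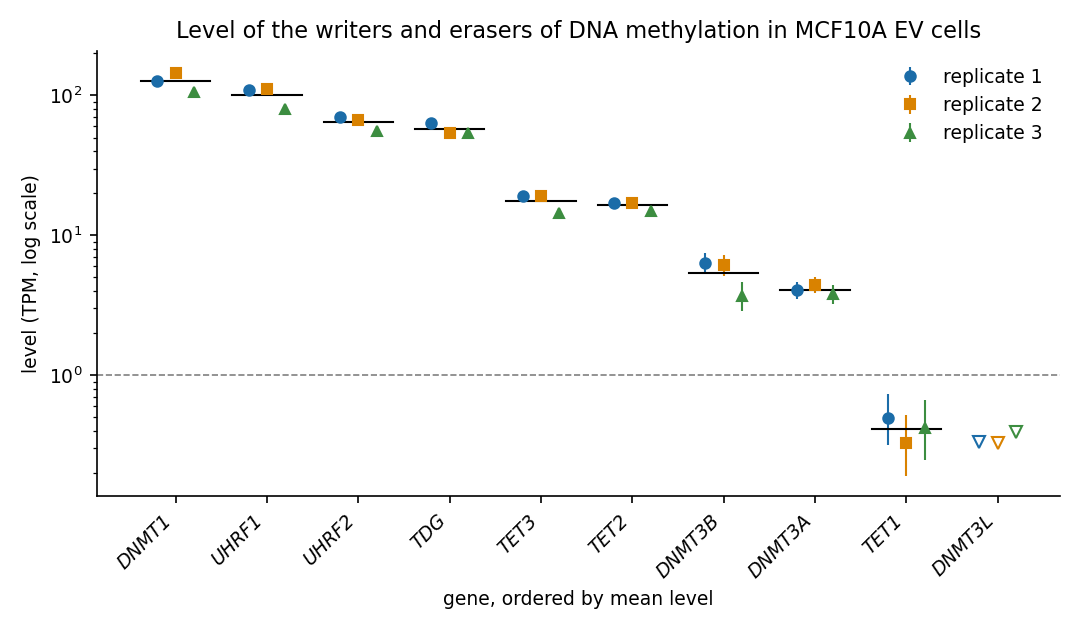
Level of the 10 genes in TPM on a log scale, with 1 point per replicate, exact Poisson 95% intervals for counting error as bars, the mean of the 3 replicates as a black line and the cutoff of 1 TPM dashed. Open triangles give the level that 3 reads would have for DNMT3L, which had 0 reads. DNMT1 lies at 106 to 146 TPM and DNMT3A at 3.79 to 4.40 TPM.

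DNMT1 (ENSG00000130816, chromosome 19 of hg38, 10133342 to 10231286, minus strand), the maintenance methyltransferase, was the highest member. In replicates 1, 2 and 3 it reached 127, 146 and 106 TPM, counted on 4776, 5618 and 3396 reads, with a mean of 126 ± 19.7 TPM (SD, n = 3). Replicate 2 was the highest and replicate 3 the lowest. By its mean it ranked 1192nd of 20046 protein-coding genes, within the top 5.95%.
UHRF1 (ENSG00000276043, chromosome 19, 4903080 to 4962154, plus strand), the reader of newly copied sites that recruits DNMT1, was measured at 110.2, 112 and 80.4 TPM, a mean of 101 ± 17.7 TPM (SD, n = 3). Replicates 1 and 2 were close and replicate 3 was lower. A processed pseudogene, ENSG00000256663, matches 36.5% of the canonical transcript of UHRF1 at 95% identity or more. It held 0.667, 0.519 and 0.784 TPM, so that few reads were assigned to it. Reads from that stretch could still have been dropped for both genes, in which case UHRF1 would read too low.
UHRF2 (ENSG00000147854, chromosome 9, 6413151 to 6507054, plus strand), a relative of UHRF1 that does not replace it in maintenance, was measured at 70.7, 67.3 and 55.3 TPM, a mean of 64.4 ± 8.09 TPM (SD, n = 3). The order of DNMT1, UHRF1 and UHRF2 was the same in each replicate.

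The ratio of DNMT1 to UHRF1 was 1.15, 1.30 and 1.32 in replicates 1, 2 and 3, and its log2 had a mean of 0.33 ± 0.11 (SD, n = 3). The ratio of UHRF1 to UHRF2 was 1.56, 1.66 and 1.45, with a mean log2 of 0.64 ± 0.10 (SD, n = 3). A pair was taken as ordered where all 3 replicates went the same way and the mean log2 ratio was over 2 SD, which held for both. With 3 replicates, an exact sign-flip permutation test cannot go below p = 0.25 (two-sided), so that test was not used to call a ratio. Reads of UHRF1 dropped because of its pseudogene would raise the first ratio and lower the second, which was not tested. The first ratio also depended on the length by which reads are divided. With the union of all annotated exons in place of the longest transcript, the log2 ratio of DNMT1 to UHRF1 was -0.52 and UHRF1 was the higher gene. DNMT1 has 52 annotated transcripts, whose union of 15379 bases is longer than the longest of them at 7157 bases, and UHRF1 has 8, with 5145 and 4309 bases.

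The de novo enzymes were far lower. DNMT3A (ENSG00000119772, chromosome 2, 25227855 to 25342590, minus strand) was measured at 4.04, 4.40 and 3.79 TPM from 202, 226 and 161 reads, a mean of 4.08 ± 0.308 TPM (SD, n = 3). Its replicates lay within a factor of 1.16. DNMT3B (ENSG00000088305, chromosome 20, 32762385 to 32809359, plus strand) was measured at 6.37, 6.11 and 3.69 TPM from 146, 144 and 72 reads, a mean of 5.39 ± 1.48 TPM (SD, n = 3).
DNMT3B was the higher of both in replicates 1 and 2 and marginally the lower in replicate 3. The ratio of DNMT3A to DNMT3B was 0.635, 0.720 and 1.03, with a mean log2 of -0.36 ± 0.36 (SD, n = 3), and the genes were not told apart. Without replicate 3 the mean log2 ratio was -0.57 and passed the rule for an ordered pair.
DNMT1 exceeded DNMT3A 31.5-, 33.1- and 28.1-fold and DNMT3B 19.97-, 23.8- and 28.8-fold in replicates 1, 2 and 3. Of the summed TPM of the 4 genes of the DNMT family listed here, DNMT1 held 92.4%, 93.3% and 93.4%, DNMT3B 4.63%, 3.92% and 3.24%, and DNMT3A 2.94%, 2.82% and 3.33%. DNMT3A and DNMT3B stood near the middle of the protein-coding genes, at the top 49.4% and 47.4% by rank.

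DNMT3L (ENSG00000142182, chromosome 21, 44246339 to 44262216, minus strand) had 0 reads throughout. With 3 reads per replicate over the whole transcript as the limit, this leaves room for up to 0.336, 0.327 and 0.395 TPM. Against this limit, DNMT3A was 12.0-, 13.5- and 9.59-fold higher and DNMT3B 18.97-, 18.7- and 9.35-fold higher. Of all protein-coding genes, 26.2% likewise had 0 reads throughout. Within 150 kb of DNMT3L, 7 of its 8 protein-coding neighbours had reads, with PFKL highest at 56.2 TPM, so the region was counted. Other annotated genes match 37.1% of the canonical transcript of DNMT3L at 95% identity or more, and had 0 reads as well. Reads from that stretch could have been dropped for both, so the 0 rests on the rest of the transcript. In that case the limit would be higher and the folds against it lower than given here.

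**Figure D2:**
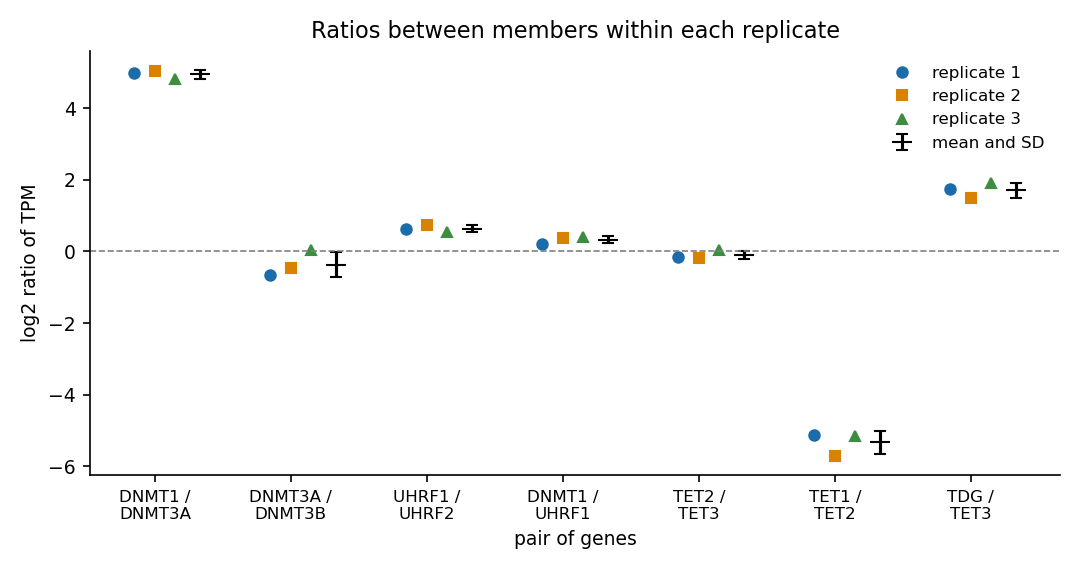
Log2 ratio of TPM between members within each replicate, with the mean and SD of the 3 replicates beside the points and a ratio of 1 dashed. The points of DNMT3A to DNMT3B and of TET2 to TET3 lie on both sides of the dashed line, at mean log2 ratios of -0.36 and -0.09, and those of the other 5 pairs on 1 side.

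Of the erasers, TET3 (ENSG00000187605, chromosome 2, 73984910 to 74108176, plus strand) was measured at 19.1, 19.2 and 14.5 TPM, a mean of 17.6 ± 2.67 TPM (SD, n = 3). TET2 (ENSG00000168769, chromosome 4, 105145875 to 105279816, plus strand) was measured at 17.1, 17.0 and 14.98 TPM, a mean of 16.4 ± 1.21 TPM (SD, n = 3). TET3 was the higher in replicates 1 and 2 and TET2 in replicate 3, and the ranges overlapped.
The ratio of TET2 to TET3 was 0.897, 0.888 and 1.03, with a mean log2 of -0.09 ± 0.12 (SD, n = 3), so that both enzymes were at levels that these replicates do not tell apart. Without replicate 3 the mean log2 ratio was -0.16 with both replicates close, and with the union of exons as length it was -0.69, which both passed the rule for an ordered pair, with TET3 the higher.
TET1 (ENSG00000138336, chromosome 10, 68560337 to 68694487, plus strand), the TET enzyme known from pluripotent cells, was measured at 0.494, 0.327 and 0.418 TPM from 25, 17 and 18 reads. The exact Poisson 95% intervals, which cover counting error only, ran from 0.320 to 0.729, from 0.190 to 0.523 and from 0.248 to 0.661 TPM, so that the replicates were not distinguishable at this depth and each lay below 1 TPM. TET2 exceeded TET1 by a geometric mean of 40.1-fold and TET3 exceeded it 42.8-fold. All 4 protein-coding genes within 150 kb of TET1 were above 1 TPM, up to 104 TPM for CCAR1.
Of the summed TPM of the TET enzymes, TET3 held 52.0%, 52.5% and 48.5%, TET2 46.6%, 46.6% and 50.1%, and TET1 1.35%, 0.896% and 1.40% in replicates 1, 2 and 3. The TET sum was 36.7, 36.5 and 29.9 TPM, and the sum of the methyltransferases 138, 156 and 114 TPM, a ratio of 3.75, 4.28 and 3.81. That ratio describes RNA per length and not enzyme activity.

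TDG (ENSG00000139372, chromosome 12, 103965822 to 103988874, plus strand) was measured at 63.7, 53.8 and 54.1 TPM, a mean of 57.2 ± 5.61 TPM (SD, n = 3). It was the only member at or above 1 TPM with its lowest value in replicate 2. TDG exceeded TET3 3.33-, 2.81- and 3.73-fold, with a mean log2 ratio of 1.71 ± 0.21 (SD, n = 3). Between UHRF2 and TDG the ratio was 1.11, 1.25 and 1.02, in 1 direction but with a mean log2 of 0.17 against an SD of 0.15, so that these neighbours were not told apart. The order turned under the union of exons, where UHRF2 was at 32.2 TPM and TDG was at 49.7 TPM. Other annotated genes match 43.2% of the canonical transcript of TDG at 95% identity or more, among them the processed pseudogene TDGP1 at 0.927, 0.601 and 0.363 TPM. Reads on TDG could thus be split or dropped, and TDG and its ratios to other genes would then read too low. No such gene exceeded 5.94 TPM in a replicate, which does not limit how many reads were dropped.

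In order of mean level, the 9 members with reads were DNMT1, UHRF1, UHRF2, TDG, TET3, TET2, DNMT3B, DNMT3A and TET1. Of the 8 pairs of neighbours, 5 were ordered and 3 were not (UHRF2 and TDG, TET3 and TET2, DNMT3B and DNMT3A). Of all 36 pairs, 33 were ordered. With the length of the canonical transcript, the order was the same, and DNMT1 was at 140 TPM. With the union of exons, UHRF1 stood above DNMT1 and TDG above UHRF2, and the other 5 genes followed in the same order.

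**Figure D3:**
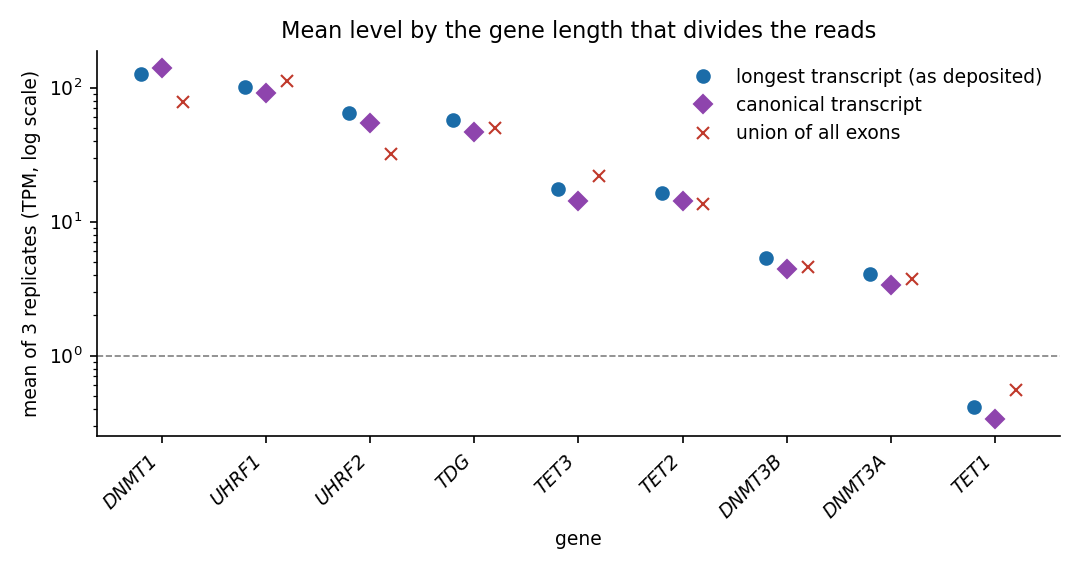
Mean of 3 replicates in TPM on a log scale for the 9 members with reads, with reads divided by the length of the longest transcript (as deposited), of the canonical transcript or of the union of all exons. DNMT1 moves from 126 to 140 and 78.4 TPM and UHRF2 from 64.4 to 54.6 and 32.2 TPM, while TET1 stays below 1 TPM.

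The spread between replicates followed the shift of replicate 3. The SD of log2(TPM + 1) had a median of 0.20 over the 8 members at or above 1 TPM, from 0.09 for DNMT3A to 0.36 for DNMT3B, of 0.19 over all genes at or above 1 TPM, and of 0.16 over protein-coding genes within the range of levels of these members. Replicate 3 was the lowest for 7 of these 8 members, and for 69.5% of all genes at or above 1 TPM. With each replicate scaled by the median of the genes with at least 10 TPM, the medians were 0.10, 0.13 and 0.10. The spread of the members was thus close to that of other genes.
After this scaling, reads were compared between replicates with a chi-square test, which sets the libraries against counting error only, with Benjamini-Hochberg adjustment over the 15802 genes with at least 15 reads. It called 3 of the 9 members (DNMT1, UHRF1 and TDG), a share close to the 31.2% called among all these genes. Without replicate 2, UHRF1 was the only member called, and 8.93% of all genes were.
The scaled levels of DNMT1 differed 1.16-fold, those of UHRF1 1.18-fold and those of TDG 1.18-fold between the highest and the lowest replicate. DNMT1 stood out upward in replicate 2, UHRF1 downward in replicate 3 and TDG downward in replicate 2. DNMT3B differed 1.45-fold and TET1 1.505-fold, and neither was called, at 362 and 60 reads in all. TET2 was the steadiest member, within a factor of 1.04.

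**Figure D4:**
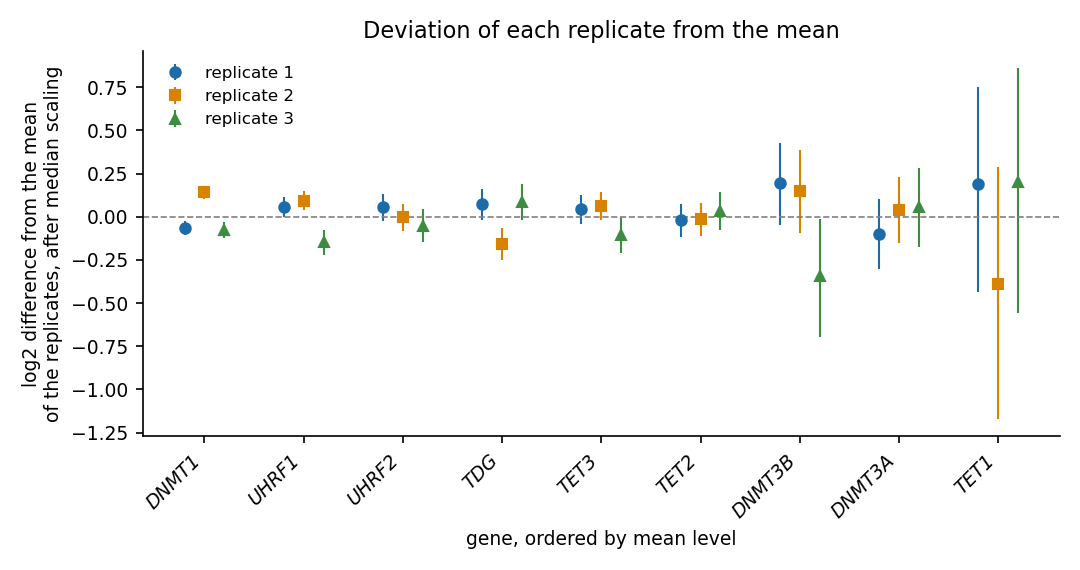
Log2 difference of each replicate from the mean of the 3 replicates after scaling by the median ratio, for the 9 members with reads, with exact Poisson 95% intervals for counting error as bars. The intervals widen from DNMT1, with 13790 reads in all, to TET1, with 60.

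Around the writers, all 8 partners of maintenance methylation were above 1 TPM, with a median of 53.7 TPM. The highest was PCNA, the sliding clamp that DNMT1 binds at the replication fork, at 587, 549 and 492 TPM, and the lowest PCLAF, a small protein bound to that clamp, at 18.1, 18.2 and 17.5 TPM. PCNA exceeded DNMT1 4.61-, 3.77- and 4.62-fold. HELLS, a chromatin remodeler needed for normal methylation, was at 87.3, 96.1 and 81.7 TPM. All 10 S phase genes were above 1 TPM, with a median of 173 TPM, from GINS2 at 57.8 TPM to TYMS at 317 TPM. Exons of genes on the opposite strand cover 66.5% of the canonical transcript of TYMS. DNMT1, UHRF1 and UHRF2 lay within the range of the S phase list, and DNMT3A and DNMT3B below all of it. Genes of other lists lay within that range too, such as MBD2 at 70.0 TPM, NSD1 at 74.2 TPM and IDH1 at 162 TPM.

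Of 9 genes listed for the targeting of methylation, imprint guards and an inhibitor of UHRF1 among them, 6 were above 1 TPM. NSD2, a histone lysine methyltransferase, was highest at 96.8, 102 and 78.2 TPM. ZFP57, which guards imprints in the embryo, had 3, 3 and 2 reads, and DPPA3, a germline inhibitor of UHRF1, had 0. TRIM28, a corepressor used by most cells, is listed at 0 in each replicate. The last 4 protein-coding genes of chromosome 19 (TRIM28, CHMP2A, UBE2M and MZF1) all had 0 reads, and UBE2M too is a gene of nearly every cell, so the 0 of TRIM28 was not read as a lack of RNA.

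All 10 genes in the list of methyl-CpG readers and their relatives were above 1 TPM, with a median of 39.3 TPM. Not every relative in it, such as MBD5, is a reader. Levels ran from MBD5 at 7.88, 8.47 and 6.18 TPM to ZBTB38, a zinc finger protein that binds methylated DNA, at 82.9, 78.2 and 63.6 TPM. All 10 genes of base excision repair were above it by the mean, with a median of 31.1 TPM. PARP1, a sensor of strand breaks, was highest at 354, 340 and 288 TPM, and NEIL1 lowest at 0.820, 1.80 and 1.87 TPM, on both sides of the cutoff. Exons of genes on the opposite strand cover 52.7% of the canonical transcript of NEIL1, and the strand setting is not given. MBD4, which like TDG removes thymine from mismatches at CpG, was at 59.1, 56.2 and 53.7 TPM. Its ratio to TDG was 0.928, 1.04 and 0.993, so that both glycosylases were at levels not told apart here.

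Of 12 cofactors and partners of the TET enzymes, 9 were above 1 TPM, with a median of 21.8 TPM. IDH1, the cytosolic source of the cosubstrate that TET enzymes use, was highest at 175, 153 and 159 TPM. CXXC4, the neighbour of TET2 in the genome, which encodes a DNA-binding partner of TET2, had 1, 3 and 2 reads, and its relative CXXC5 was at 31.5, 29.6 and 26.6 TPM. GADD45G was at 0.536, 0.695 and 1.26 TPM from 3, 4 and 6 reads, and SLC23A1, a vitamin C transporter, had 0 reads, while SLC23A2, the other one, was at 39.1, 37.7 and 36.6 TPM. For the methyl donor, MAT2A, which makes S-adenosylmethionine in most tissues, was highest at 513, 489 and 412 TPM. MAT1A, its liver form, was lowest with a mean of 0.657 TPM and on both sides of the cutoff. Over these 6 lists of partners, targeting, readers, repair, cofactors and methyl donor supply, 46 of 53 genes were above 1 TPM. Of all protein-coding genes, 56.7% reached that cutoff.

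**Figure D5:**
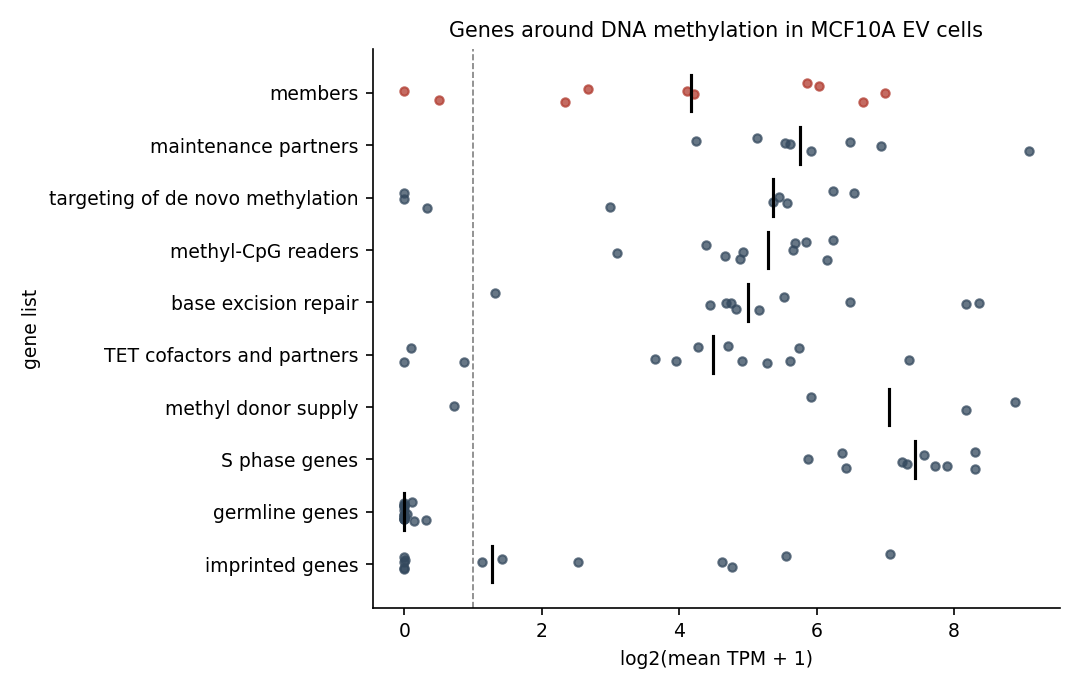
Mean level as log2(mean TPM + 1) of the members (red) and of 9 lists of genes around DNA methylation, with 1 point per gene, the median of each list as a black bar and a mean of 1 TPM dashed. All 8 maintenance partners and all 10 genes listed as methyl-CpG readers or their relatives lie right of the dashed line, and all 15 germline genes left of it.

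Genes that are known to depend on DNA methylation were read beside the enzymes. Of 15 germline genes whose promoters are methylated in most somatic cells, none reached 1 TPM, and 11 had 0 reads in every replicate (DAZL, SYCP1, SYCE1, TDRD1, HORMAD1, BRDT, MAGEA1, MAGEA3, MAGEA4, CTAG1B and SSX2). Reads of MAGEA3, CTAG1B and SSX2 could be lost to near-identical copies of these genes. Exons on the opposite strand cover 89.9% of the canonical transcript of SYCE1, so its 0 could depend on the strand setting. TEX14 was highest with 8, 10 and 1 reads, a mean of 0.244 TPM, and DDX4 lowest above 0 with 1 read in all. Promoter windows were found for 11 of the 15 genes and held a median of 19 CpG.
Of 12 imprinted genes, whose parental copies differ in methylation, 7 were above 1 TPM and MEG3, DLK1, PEG3 and NNAT had 0 reads. Among all protein-coding genes, 56.7% reached 1 TPM and 26.2% had 0 reads throughout, so these counts say nothing particular about imprinted genes. PEG10 was the highest imprinted gene at 144, 143 and 111 TPM, and IGF2 had 1 read in all. Parts of the exons of IGF2 and of PEG3 are shared with other genes. KCNQ1OT1 lay on both sides of the cutoff at 0.923, 1.84 and 0.774 TPM, from 446, 913 and 318 reads over a transcript of 91667 bases. Levels of RNA do not show which parental copy was used, and whether the low genes of either list carry methylation was not tested.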

How the data were processed

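RNA-seq was measured in 3 EV replicates of MCF10A cells. The authors prepared libraries from 300 ng of RNA depleted of ribosomal RNA, ran Seq2science with hg38 as the genome, and deposited 1 table of TPM per gene and replicate. The submitters' processing notes also name fastp, STAR and MultiQC and the build GRCh38.p14. The annotation release and the strand setting are not given in the sources used here. Columns were matched to samples by library name.

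TPM values were used as deposited. Lengths, positions and names came from GENCODE release 44, in which 54 genes of the table were not found. TPM times length (longest transcript, with 1 base less per exon) over its smallest value above 0 gave whole reads within 0.01 for 100% of annotated values, on the assumption that this step is 1 read. For 0 reads, a limit of 3 reads was used. Intervals and limits cover counting error only. Near-identical copies were searched with blastn at 95% identity among annotated transcripts. No groups could be compared. Replicates were compared by a chi-square test of reads with Benjamini-Hochberg adjustment, and gene pairs by their ratio within replicates. The scripts were first tested on simulated data.

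The members and lists were chosen with earlier results of these data known. Named from each other list were the highest gene, the lowest above 0, and genes with 0 reads or called differently between replicates. HELLS, MBD4, CXXC5, SLC23A2, ESR1, PECAM1 and neighbouring genes, and the promoters printed, were named after their values were seen. Genes were not ranked by likeness of pattern, since 3 replicates of 1 condition hold none over conditions. Alternatives covered the cutoff, the summary, the pseudocount, low values, rescaling, gene length and each replicate left out. Tools were scipy 1.17.1, pandas 2.3.3, numpy 2.4.6, matplotlib 3.10.9 and Python 3.11.15.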

Additional observations from a re-analysis of the deposited data

How the results depend on the processing

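No paired analysis was possible because the series has a single condition. The number of members at or above 1 TPM was 8 and the number called differently 0 under every alternative tried. Of the 90 genes of the 9 lists around DNA methylation, S phase, germline and imprinted genes among them, 63 were at or above 1 TPM. This number was 60 to 65 under the alternatives. The median level over the members was 17.0 TPM, 14.3 TPM with the length of the canonical transcript and 19.5 TPM with each replicate rescaled so that protein-coding genes alone sum to 1000000. The log2 ratio of DNMT1 to UHRF1 turned from 0.33 to -0.52 with the union of exons. TET2 to TET3 became ordered with the union of exons (-0.69) and ranged from -0.164 to -0.0557 with 1 replicate left out, and DNMT3A to DNMT3B from -0.57 to -0.22, both ordered only without replicate 3. The median spread of 0.20 was 0.10 after median scaling, and 0.0430 to 0.232 with 1 replicate left out, lowest without replicate 3. Members that differed beyond counting error numbered 3 (31.2% of all genes), but 7 without scaling (54.3%), where the test includes the shift of replicate 3. They numbered 4 without replicate 1 (27.3%), 1 (UHRF1) without replicate 2 (8.93%) and 2 without replicate 3 (21.1%). The cause of these changes was otherwise not tested. Depth limits TET1, with 60 reads in all, and DNMT3L, whose 0 reads allow up to 0.395 TPM if reads from its whole transcript were counted.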
